A study of Mus musculus with 6 samples.

Results

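The insulin-like growth factor (IGF) system was measured in hippocampal RNA through 10 genes, which were the 2 ligands Igf1 and Igf2, the 2 receptors Igf1r and Igf2r, and the 6 binding proteins Igfbp2 to Igfbp7. They were taken by gene symbol from the 54532 genes of the deposited table, and all 10 were found and expressed enough to be tested among 20952 genes. IGF1 and IGF2 are small secreted hormones that signal through the IGF1 receptor, a tyrosine kinase, and on to insulin receptor substrates, PI3 kinase and AKT. The IGF2 receptor carries no kinase and takes IGF2 to lysosomes, where it also delivers enzymes tagged with mannose 6-phosphate. Most IGF in tissue is held by secreted binding proteins, which extend its life, keep it from the receptor or release it when proteases cut them. In the rodent brain, Igf1 is known from neurons and microglia, and Igf2 and Igfbp2 are known for strong expression in the choroid plexus and the leptomeninges.

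RNA-seq was done on the hippocampus of 3 wild-type (WT) mice and 3 TG mice. The TG mice carried the G82R and L85P changes of Slc1a2, the gene of the astrocyte glutamate transporter GLT-1, placed in exon 3 by CRISPR/Cas9 on a C57BL/6N background. Per the study's methods, F1 heterozygous mice were bred and littermates served as WT controls, and mice of both sexes were obtained in each genotype, whereas zygosity, age and sex of the 6 sequenced mice were not given in the sources used here. The libraries keep the mouse numbers of the labels (WT1, WT2, WT3, TG1, TG2, TG3), and 3 values of a group are always listed in this order. The labels number separate mice, so the p-values measure the spread between mice and their libraries together.

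The deposited values are fragments per kilobase of gene scaled to library size (FPKM), so levels of different genes can be set side by side per length. The recovered reads on genes were 16081281 to 18751057 per WT library and 16116117 to 17898604 per TG library. Slc1a2 stood at an FPKM of 202.5, 199.5 and 177.3 in WT, against 222, 207.1 and 217.3 in TG. Both changes are missense, and FPKM hold no bases, so this value does not check the genotype.

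TG1 and TG2 stood apart in genes of the choroid plexus, the tissue that secretes cerebrospinal fluid and borders the hippocampus. Its leading gene Ttr, the thyroid hormone carrier transthyretin, had an FPKM of 72.99, 49.77 and 66.65 in WT, against 1168, 3705 and 57.73 in TG. The summed FPKM of 18 choroid plexus genes lay between 84.57 and 117.4 in WT libraries and between 96.96 and 4223 in TG libraries, and none of the 18 was at 0 in every library. Genes of hippocampal neurons, such as Camk2a, summed to 1033 to 1187 in WT and 1097 to 1261 in TG libraries, so neuronal RNA was present in all. Camk2a alone had an FPKM of 448.5 to 608.2 per library, so the sum leans on it and does not check the dissection. In bulk tissue, fewer cells of a type and less RNA per cell cannot be told apart, and this holds for every value here.

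The promoters of 4 members are shown because 3 of them belong to the members with an unadjusted p under 0.05 between TG and WT, and Igfbp4 to a member whose groups overlapped. RefSeq starts were found for all 10 genes, with 14 start windows in all, in GRCm38.p6. The runs are the 250 bases before the first listed start, read 5′ to 3′ on the strand of the gene. Capitals mark the motif GGGCGG, the core of a GC box, or its reverse complement. They also mark TATAAA, the core of a TATA box, which was searched on either strand as well, and touching copies form 1 run of capitals.
Igfbp2 (chr1:72824230-72824479, plus strand): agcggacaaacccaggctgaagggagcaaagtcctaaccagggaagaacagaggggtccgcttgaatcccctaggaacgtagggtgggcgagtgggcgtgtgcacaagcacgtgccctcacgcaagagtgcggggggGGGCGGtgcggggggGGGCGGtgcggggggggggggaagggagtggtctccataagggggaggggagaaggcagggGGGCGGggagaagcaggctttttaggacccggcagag
Igfbp7 (chr5:77408046-77408295, minus strand): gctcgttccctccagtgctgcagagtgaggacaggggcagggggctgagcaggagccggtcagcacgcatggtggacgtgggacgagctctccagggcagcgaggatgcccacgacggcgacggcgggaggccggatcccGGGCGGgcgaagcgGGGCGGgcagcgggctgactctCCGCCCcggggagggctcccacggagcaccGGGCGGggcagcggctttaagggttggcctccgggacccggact
Igf2r (chr17:12769707-12769956, minus strand): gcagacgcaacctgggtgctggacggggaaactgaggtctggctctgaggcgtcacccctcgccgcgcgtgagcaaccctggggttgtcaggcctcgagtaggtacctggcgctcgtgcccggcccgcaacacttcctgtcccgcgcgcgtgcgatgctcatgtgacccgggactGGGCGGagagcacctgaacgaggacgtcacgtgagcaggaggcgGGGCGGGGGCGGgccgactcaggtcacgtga
Igfbp4 (chr11:99040994-99041243, plus strand): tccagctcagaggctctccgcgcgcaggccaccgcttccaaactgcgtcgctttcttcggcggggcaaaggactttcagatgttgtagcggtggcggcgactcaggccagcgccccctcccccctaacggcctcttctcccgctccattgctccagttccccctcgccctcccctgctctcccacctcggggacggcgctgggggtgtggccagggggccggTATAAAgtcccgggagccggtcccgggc
The Igfbp7 window held 4 GGGCGG copies, and the windows of Igfbp2 and Igf2r held 3 each. Igfbp4 had none but 1 TATAAA, which was also seen once in the Igfbp6 window. Of all 32851 windows of this length, 32.7% held GGGCGG and 12.4% held TATAAA. Of the 14 windows of the members, 6 held GGGCGG and 2 held TATAAA. Counted by gene, 5 held GGGCGG in at least 1 window, the others being Igf1r and Igf2. Genes differ in their number of windows, so the count by gene cannot be set against the share of windows. The letters describe the sequence only. GC content was 67.2% in the Igfbp2 window, 74% in that of Igfbp7 and 69.2% in those of Igf2r and Igfbp4, against a median of 52.4% over all windows.

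In WT hippocampus, binding protein transcripts far exceeded those of the ligands per length. Mean FPKM over the 3 WT libraries was 23.58 for Igfbp5, 22.36 for Igfbp4, 20.13 for Igfbp7, 14.29 for Igfbp2 and 11.19 for Igfbp6, and the WT ranges of each neighbouring pair in this order overlapped. Igfbp3 followed at 7.063, apart from its neighbours on both sides. The receptors came next and could not be ordered, with 4.474 for Igf1r and 4.461 for Igf2r. The ligands were lowest, with 0.6508 for Igf1 and 0.2035 for Igf2, and their WT ranges lay apart. In the TG libraries Igfbp2 stood first at 39.37, although its range of 18.47 to 63.51 overlapped that of Igfbp5. The summed FPKM of the 6 binding proteins was 92.21 to 154.6 times the summed ligand FPKM in WT libraries and 97.99 to 140.8 times in TG libraries.

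**Figure D1:**
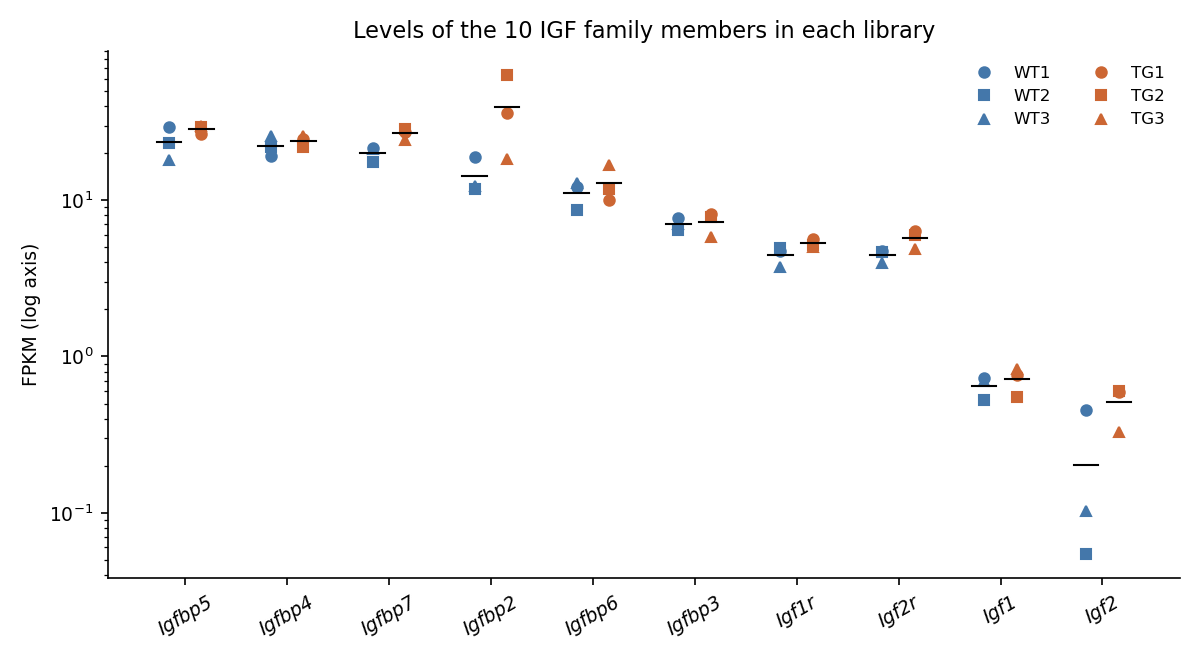
FPKM (log axis) of the 10 members in each library, ordered by WT mean, with WT libraries in blue, TG libraries in orange and group means as bars; circles, squares and triangles are replicates 1, 2 and 3. Igfbp2 spreads from 18.47 to 63.51 over the TG libraries, and Igf2 from 0.05409 to 0.4536 over the WT libraries.

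The TG and WT libraries were compared with limma on log2(FPKM + 0.1), a scale on which fold changes of low genes are understated. After Benjamini-Hochberg adjustment over all genes, 2 genes in the table (0.00955%) passed 0.05, and 0 of the 10 members did. At an unadjusted p under 0.05, 3 members were higher in TG (Igfbp7, Igfbp2 and Igf2r), where 3.13% of all genes were higher, and 0 members were lower, where 2.78% of all genes were lower. In 3 members (Igfbp7, Igf1r and Igf2r) the lowest TG library exceeded the highest WT library, against 6.35% of all genes, and in 0 members the reverse held, against 5.71%. All 10 log2 fold changes were above 0, with a median of 0.28, while 49.63% of all genes were above 0 and their median was -0.0020. The count of 3 was 5 without WT1, and 1 without WT2, WT3 or TG1. The members share libraries and, in part, cell sources, so their common sign is not 10 separate observations.

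**Figure D2:**
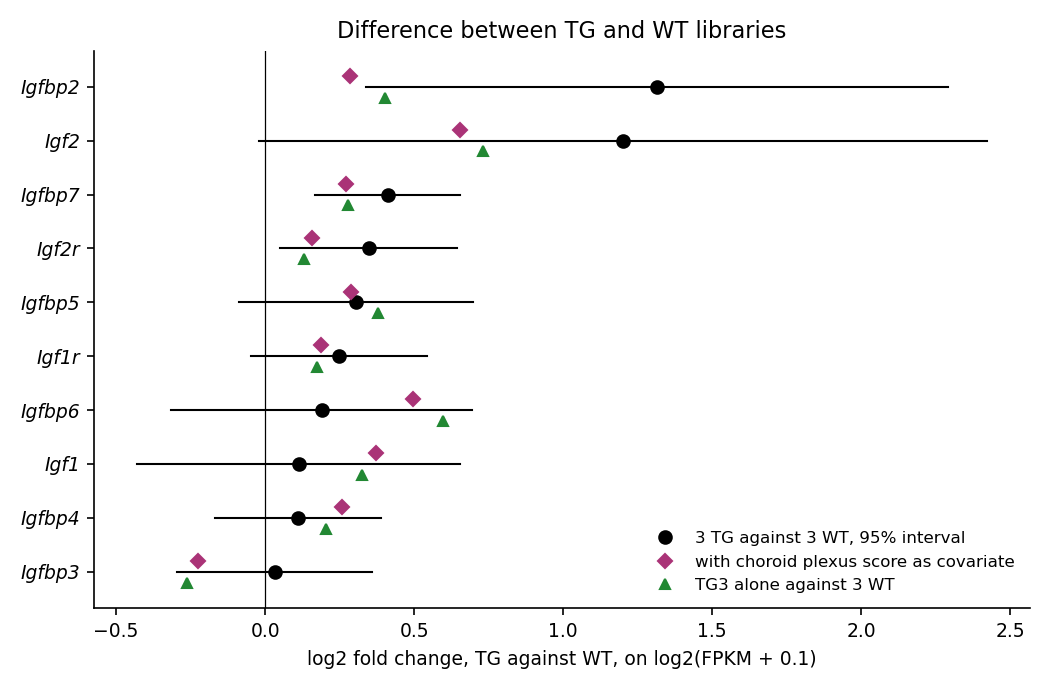
Log2 fold change of each member on log2(FPKM + 0.1), with TG above WT to the right, for 3 TG against 3 WT libraries with the 95% interval of the limma fit (black), with a choroid plexus score as a covariate (diamonds) and for TG3 alone against WT (triangles). Igfbp2 drops from 1.31 to 0.29 and 0.40, and Igfbp3 changes sign.

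Igf2 (ENSMUSG00000048583, chromosome 7 from 142650766 to 142666816, minus strand) is the fetal growth factor that is expressed from the paternal allele in most tissues. Its FPKM was 0.4536, 0.05409 and 0.1027 in WT, against 0.5963, 0.6043 and 0.3289 in TG. WT1 was several times higher than the other WT libraries and lay above TG3, so the groups overlapped. The log2 fold change was 1.20 (SE 0.52), with an unadjusted p of 0.053 and an adjusted p of 0.79 by limma. It depended on the pseudocount, being 0.34 with a pseudocount of 1 and 1.75 with 0.01, and voom on recovered reads gave 1.74 (unadjusted p = 0.0095 by limma). Without WT1 the log2 fold change was 1.75 (unadjusted p = 0.0042, adjusted p = 0.68 by limma). With any other library left out it was 0.83 to 1.44, with an unadjusted p of 0.059 to 0.17 by limma. Few reads stood behind these values, namely 48, 5 and 11 in WT, against 54, 62 and 34 in TG. Exact Poisson 95% intervals were 35.4 to 63.6 reads for WT1, 1.62 to 11.7 for WT2 and 5.49 to 19.7 for WT3, so the spread within WT exceeded counting error. Those of TG1 to TG3 ran from 40.6 to 70.5, 47.5 to 79.5 and 23.6 to 47.5 reads, and such intervals cover counting error only. The gene model Gm49394 overlaps 62.8% of the exon bases of Igf2 on the same strand and was listed at 0 in all libraries, so how the counting divided shared reads bears on the level of Igf2.

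Igf1 (ENSMUSG00000020053, chromosome 10 from 87858265 to 87937042, plus strand), the ligand that sustains growth and survival of neurons after birth, showed no such spread. Its FPKM was 0.7263, 0.5251 and 0.7011 in WT and 0.7593, 0.552 and 0.833 in TG libraries, with 84 to 149 reads. The groups overlapped, and the log2 fold change was 0.11 (SE 0.23, adjusted p = 0.91 by limma).

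The ratio of Igf2 to Igf1 within a library was 0.6246, 0.103 and 0.1464 in WT, against 0.7853, 1.095 and 0.3949 in TG. WT1 again lay within the TG range. The mean difference was 1.72 on the log2 scale, with a two-sided exact permutation p of 0.2, where 0.1 is the smallest that 3 against 3 libraries can give.

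Igf1r (ENSMUSG00000005533, chromosome 7 from 67952827 to 68233668, plus strand) encodes the signalling receptor. Its FPKM was 4.725, 4.981 and 3.715 in WT, against 5.668, 5.199 and 5.022 in TG. All TG libraries lay above all WT libraries. The gap was narrow, as the exact Poisson interval of TG3 (4.773 to 5.281 FPKM) overlapped that of WT2 (4.719 to 5.254). The log2 fold change of 0.25 (SE 0.13) had an unadjusted p of 0.089 and an adjusted p of 0.79 by limma. With a library left out it ran from 0.12 (without WT3) to 0.33 (without WT2). The unadjusted p was then 0.053 to 0.23 by limma.

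Igf2r (ENSMUSG00000023830, chromosome 17 from 12682406 to 12769664, minus strand) encodes the scavenger receptor of IGF2. Its FPKM was 4.753, 4.682 and 3.948 in WT, against 6.307, 5.963 and 4.878 in TG, or 4.461 ± 0.446 (SD, n = 3) against 5.716 ± 0.746 (SD, n = 3). Again the groups did not overlap, and TG3 was the TG library nearest to WT. The exact Poisson interval of TG3 (4.55 to 5.223 FPKM) overlapped that of WT1 (4.433 to 5.09). The log2 fold change was 0.35 (SE 0.13), with an unadjusted p of 0.028 and an adjusted p of 0.79 by limma. Without WT2, WT3, TG1 or TG2 the unadjusted p was 0.051, 0.087, 0.10 and 0.092 by limma. The antisense RNA Airn, which silences the paternal copy of Igf2r in many tissues, shares no exon base with it and had at most 20 reads in a library. The level of Igf2r relative to Igf1r was 0.94 to 1.063 in WT libraries and 0.9713 to 1.147 in TG libraries, so these ranges overlapped.

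Igfbp2 (ENSMUSG00000039323, chromosome 1 from 72824503 to 72852474, plus strand), a binding protein that prefers IGF2, had the largest fold change of the 10 genes in this fit. Igf2 exceeded it with a pseudocount of 0.01, with voom and with scaling to a common FPKM sum per library. The same held without WT1, without TG2, with the choroid plexus score and for TG3 alone. Its FPKM was 18.77, 11.8 and 12.29 in WT, against 36.13, 63.51 and 18.47 in TG. TG1 and TG2 were far above every WT library, whereas TG3 was just below WT1. Means were 14.29 ± 3.89 (SD, n = 3) and 39.37 ± 22.7 (SD, n = 3), and the log2 fold change was 1.31 (SE 0.42, 95% interval 0.34 to 2.29), with an unadjusted p of 0.015 and an adjusted p of 0.79 by limma. The reads behind it numbered 352 to 2103 per library, so counting error was small against this spread. Leaving out WT2, WT3 or TG1 took the unadjusted p to 0.078, 0.068 and 0.067 by limma, and without TG3 the log2 fold change was 1.77 (adjusted p = 0.41 by limma). Without TG2 it was 0.88 (unadjusted p = 0.047 by limma).

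Igfbp2 and the choroid plexus genes were high in the same TG libraries. Above the WT mean, Igfbp2 had an excess of 21.84 FPKM in TG1, 49.23 in TG2 and 4.18 in TG3, where Ttr had 1104, 3642 and -5.40. On the log2 scale, the median of the 18 choroid plexus genes lay 2.69, 4.23 and -0.037 from the WT mean in TG1 to TG3, and Igfbp2 lay 1.37, 2.18 and 0.40 from it. In the TG against WT fit, 10 of the 18 choroid plexus genes passed an unadjusted p of 0.05 upward and 0 downward. The shares over all genes were 3.13% and 2.78%, and the median log2 fold change of the 18 was 2.38. With the mean of these genes in each library as a covariate, the log2 fold change of Igfbp2 was 0.29 (SE 0.20, unadjusted p = 0.19 by limma), and that of TG3 alone against WT was 0.40 (unadjusted p = 0.31 by limma).

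**Figure D3:**
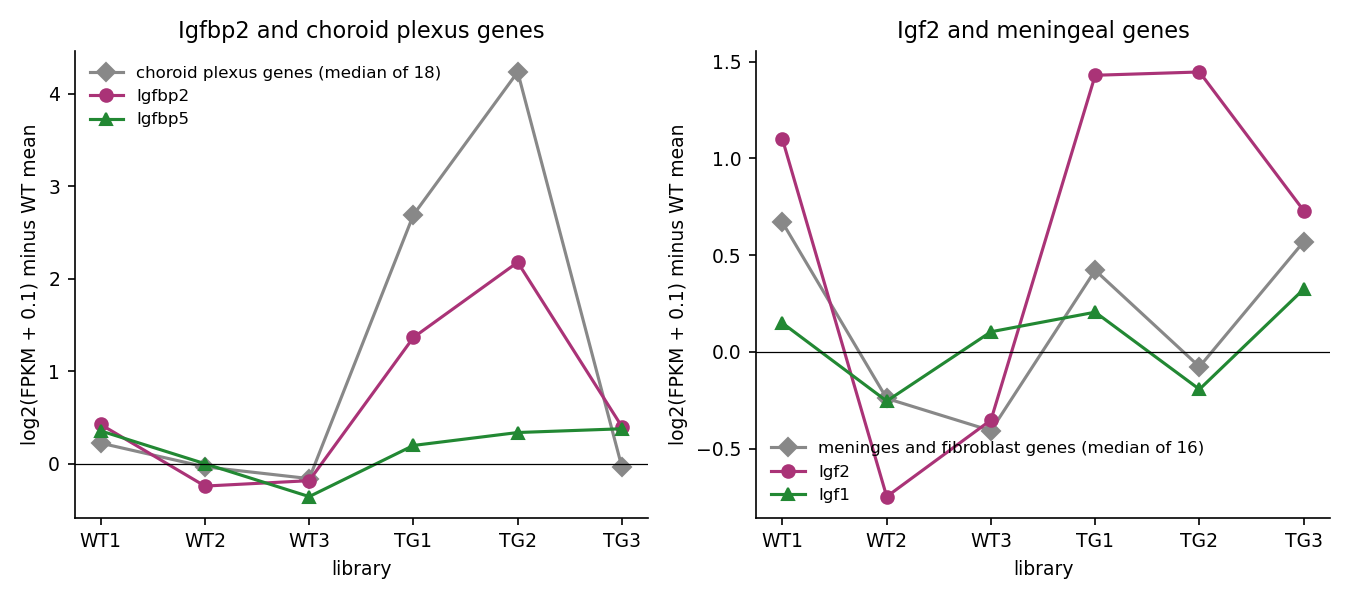
Log2(FPKM + 0.1) minus the WT mean in each library for Igfbp2, Igfbp5 and the median of 18 choroid plexus genes (left), and for Igf2, Igf1 and the median of 16 genes of meninges and fibroblasts (right); lines join libraries only to guide the eye. Igfbp2 is high in TG1 and TG2 like the choroid plexus genes, and Igf2 is high in WT1 and in all TG libraries.

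The 4 genes nearest to Igfbp2 in their pattern over the 6 libraries, among the 13325 genes whose FPKM averaged 1 or more, were Epn3, Pcolce, Cgnl1 and Bst2, with Sfrp1 as the fifth. Likeness was the root-mean-square difference of centred log2 values, which was 0.18 for Epn3, 0.19 for Pcolce, 0.24 for Cgnl1, 0.27 for Bst2 and 0.28 for Sfrp1. Pcolce, an enhancer of collagen processing, had an FPKM of 2.306, 1.036 and 0.978 in WT, against 3.587, 5.764 and 1.506 in TG. Nearest to Igf2 were Sfrp1 (0.32), Bmp6 (0.33), Gbp2 (0.36), Bmp7 (0.38) and the pseudogene Gm38080 (0.38). Bmp6, a secreted ligand of the TGF-beta family, had an FPKM of 4.701, 2.334 and 1.657 in WT, against 6.19, 7.91 and 3.393 in TG, so it shared with Igf2 the high value of WT1.

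Meningeal genes were read beside Igf2. The median of 16 genes of meninges and fibroblasts lay 0.67, -0.24 and -0.41 from the WT mean on the log2 scale in WT, against 0.42, -0.076 and 0.57 in TG. Igf2 lay 1.10, -0.75 and -0.35 from its WT mean in WT, against 1.43, 1.45 and 0.73 in TG. WT1 was the highest WT library in both, whereas the lowest was WT2 for Igf2 and WT3 for the meningeal genes. WT1 also had the highest WT median of the choroid plexus (0.22), ependymal (0.29), endothelial (0.13), mural (0.14) and oligodendrocyte (0.14) lists. The same held for astrocytes (0.054), microglia (0.033) and neighbouring regions (0.17), but not for hippocampal neurons or interneurons. Of these WT1 medians, that of the meningeal genes (0.67) was the largest. The source of the high Igf2 value in WT1 was not tested. The summed FPKM of the meningeal list ran from 229.6 to 648.7 in WT and from 310.3 to 528.9 in TG libraries, and none of its genes was at 0 throughout. At an unadjusted p under 0.05, 0 of 16 passed, against 3.13% of all genes higher and 2.78% lower. Its most abundant gene Ptgds, the prostaglandin D synthase of the leptomeninges, had an FPKM of 573.9, 224.6 and 192.2 in WT and 423.7, 263.7 and 467.5 in TG libraries. With the meningeal score as a covariate the log2 fold change of Igf2 was 1.00 (unadjusted p = 0.084 by limma), and with the choroid plexus score it was 0.65 (unadjusted p = 0.39 by limma).

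Igfbp7 (ENSMUSG00000036256, chromosome 5 from 77349240 to 77408041, minus strand), a relative with low affinity for IGF that is abundant in vessel walls, had the smallest p of the 10 genes in this fit. Its FPKM was 21.52, 17.56 and 21.29 in WT, against 27.28, 28.65 and 24.32 in TG. The groups did not overlap, and TG3 was again the lowest TG library. Its exact Poisson 95% interval (22.29 to 26.48 FPKM) overlapped that of WT1 (19.64 to 23.53). Means were 20.13 ± 2.22 (SD, n = 3) and 26.75 ± 2.22 (SD, n = 3), with a log2 fold change of 0.41 (SE 0.10, 95% interval 0.17 to 0.66), an unadjusted p of 0.0050 and an adjusted p of 0.79 by limma. Polr2b, on the other strand, overlaps 7.03% of its exon bases and stayed between 14.19 and 16.21 FPKM in all 6 libraries.

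Vessel genes were read beside Igfbp7. Of 12 endothelial genes, 1 was higher and 0 lower at an unadjusted p under 0.05, against 3.13% and 2.78% of all genes. It was Flt1, a VEGF receptor (unadjusted p = 0.040 by limma), with 5.623, 5.699 and 4.857 FPKM in WT, against 6.645, 5.936 and 6.569 in TG. The endothelial list summed to 106.5 to 126.3 FPKM in WT and 117.2 to 121 in TG libraries. Its median log2 fold change was 0.046, with 9 of 12 above 0, against 49.63% of all genes. Ly6c1, its most abundant gene, had a log2 fold change of -0.09 (adjusted p = 0.83 by limma). Of 9 mural cell genes, 0 passed, against the same shares of all genes, and they summed to 70.88 to 102.8 in WT and 67.91 to 99.91 in TG libraries. With the choroid plexus score as a covariate, the log2 fold change of Igfbp7 was 0.27 (unadjusted p = 0.096 by limma) and that of Igf2r was 0.16 (unadjusted p = 0.37 by limma). For TG3 alone against WT they were 0.28 and 0.13 (unadjusted p = 0.17 and 0.46 by limma). With the choroid plexus score, 0 of the 10 members passed an unadjusted p of 0.05, where 328 of 20952 genes were higher and 371 lower. These shares are small, so a count of 0 among 10 genes says little about the members. The covariate is itself tied to the TG group, and TG3 alone is 1 library assumed to vary like the WT libraries, so the part of genotype and of choroid plexus content in these differences cannot be told apart.

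Igfbp5 (ENSMUSG00000026185, chromosome 1 from 72857932 to 72874884, minus strand), a binding protein that attaches to matrix and bone mineral, lies tail to tail with Igfbp2, with 5457 bases between them. Its FPKM was 29.57, 23.11 and 18.04 in WT, against 26.51, 29.22 and 30.05 in TG. The groups overlapped through WT1, and TG3 was the highest TG library, unlike in Igfbp2. The log2 fold change was 0.30 (SE 0.17, adjusted p = 0.79 by limma), and without WT1 it was 0.48 (unadjusted p = 0.011 by limma). With any other library left out it was 0.13 to 0.36, with an unadjusted p of 0.15 to 0.34 by limma. The ratio of Igfbp5 to Igfbp2 was 1.576, 1.959 and 1.468 in WT1 to WT3, 0.7339 in TG1, 0.46 in TG2 and 1.627 in TG3, so only TG1 and TG2 left the WT range.

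Igfbp4 (ENSMUSG00000017493, chromosome 11 from 99041244 to 99054392, plus strand) is an inhibitor of IGF action until the protease PAPP-A cuts it. Its FPKM was 19.2, 22 and 25.87 in WT, against 24.63, 21.85 and 25.58 in TG. These ranges overlapped, and the log2 fold change was 0.11 (SE 0.12, adjusted p = 0.82 by limma).

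Igfbp3 (ENSMUSG00000020427, chromosome 11 from 7206086 to 7213923, minus strand), the main carrier of IGF in serum, had 7.672, 6.468 and 7.048 FPKM in WT, against 8.217, 7.77 and 5.855 in TG. TG3 was the lowest of all libraries and TG1 the highest. The log2 fold change was 0.03 (SE 0.14, adjusted p = 0.96 by limma), and its sign turned with the choroid plexus score (-0.22) and in TG3 alone (-0.26).

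Igfbp6 (ENSMUSG00000023046, chromosome 15 from 102144362 to 102149511, plus strand), which binds IGF2 in preference to IGF1, had 12.06, 8.63 and 12.87 FPKM in WT, against 10.06, 11.84 and 16.73 in TG. Here TG3 was the highest library and TG1 lay within the WT range. The log2 fold change was 0.19 (SE 0.22, adjusted p = 0.83 by limma).

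The 6 binding proteins together had a summed FPKM of 108.8, 89.57 and 97.42 in WT, against 132.8, 162.8 and 121 in TG. All TG libraries lay above all WT libraries. The means were 98.6 ± 9.67 (SD, n = 3) and 138.9 ± 21.6 (SD, n = 3), and the log2 difference of 0.49 had a two-sided exact permutation p of 0.1, the smallest that this design allows. Igfbp2 took 17.25%, 13.17% and 12.62% of the sum in WT, against 27.2%, 39% and 15.26% in TG. Without Igfbp2 the sum was 84.31 ± 6.17 (SD, n = 3) in WT and 99.52 ± 2.92 (SD, n = 3) in TG libraries, a log2 difference of 0.24 with the same exact permutation p of 0.1.

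**Figure D4:**
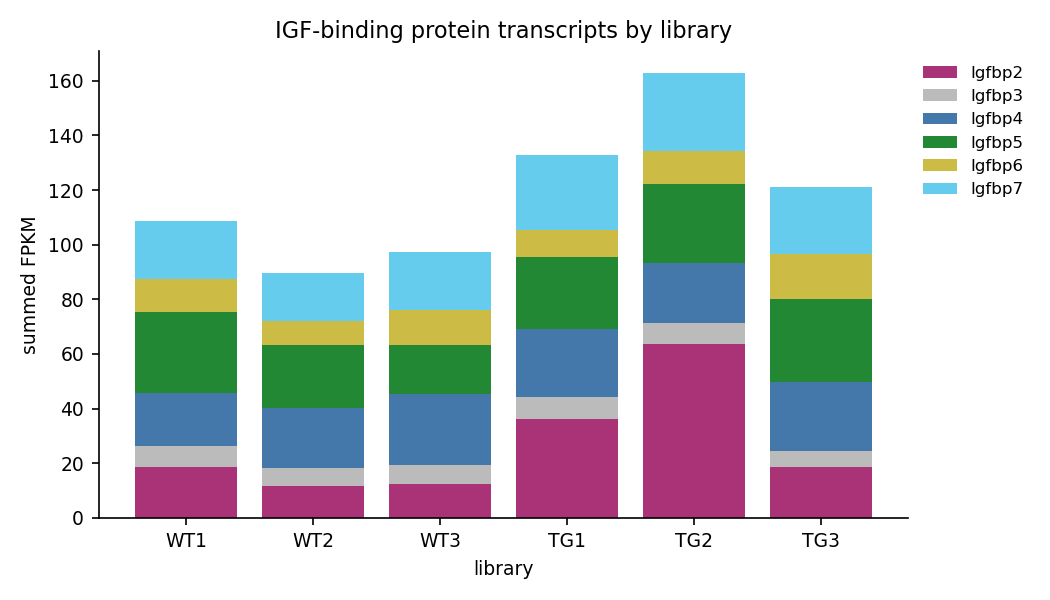
FPKM of the 6 IGF-binding proteins stacked for each library. The sum runs from 89.57 to 108.8 in WT and from 121 to 162.8 in TG libraries, and the share of Igfbp2 reaches 39% in TG2.

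Relatives of the family were mostly silent. Of 9 listed, 2 were expressed enough to be tested, and Ins1 was at 0 in every library. Igf2os, Ins2, H19, Igfals, Insrr and Igfbp1 were not tested. The most reads in a library were 13 for Insrr, 10 for Igf2os, 6 for Ins2, 5 for Igfals, 3 for Igfbp1 and 1 for H19. Igfbpl1, a relative of Igfbp7 known from immature neurons of the dentate gyrus, was lower in TG, with 0.5492, 0.4762 and 0.5423 FPKM in WT, against 0.35, 0.206 and 0.2044 in TG. The groups did not overlap, on 12 to 33 reads per library, and the log2 fold change was -0.84 (SE 0.28), with an unadjusted p of 0.018 and an adjusted p of 0.79 by limma. With the choroid plexus score it was -0.90 (unadjusted p = 0.071 by limma), and in TG3 alone, a single library, against WT it was -1.03 (unadjusted p = 0.017 by limma). Insr, the insulin receptor, had 5.213 FPKM in WT and 5.378 in TG libraries on average (log2 fold change 0.05, adjusted p = 0.92 by limma).

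Of 11 proteases and inhibitors that act on binding proteins, 2 passed an unadjusted p of 0.05 upward and 0 downward, against 3.13% and 2.78% of all genes, with a median log2 fold change of 0.26 against -0.0020 over all genes. Adamts1, a metalloprotease of the extracellular matrix, had 4.346, 3.935 and 3.889 FPKM in WT, against 6.138, 6.302 and 4.679 in TG. Its groups did not overlap, and the log2 fold change was 0.47 (SE 0.13, unadjusted p = 0.0081, adjusted p = 0.79 by limma). With the choroid plexus score it was 0.21 (unadjusted p = 0.16 by limma). Plau, the urokinase plasminogen activator, had 0.7541, 0.7062 and 0.9929 FPKM in WT and 1.015, 1.178 and 1.404 in TG libraries (log2 fold change 0.50, unadjusted p = 0.039 by limma). TG3 was the highest library for Plau. Ctsd, the lysosomal cathepsin D and the most abundant of the list, overlapped between groups (log2 fold change 0.16, adjusted p = 0.83 by limma).

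Of 30 signalling genes downstream of the receptors, 2 were higher (Irs1 and Foxo3) and 1 was lower (Grb14) at an unadjusted p under 0.05, against 3.13% and 2.78% of all genes. With 30 genes these shares are close to the background. The sign was less even, as 25 of the 30 (83.33%) had a log2 fold change above 0, against 49.63% of all genes. The median was 0.09, against -0.0020 over all genes. Irs1, a docking protein of both the insulin and the IGF1 receptor, had 1.414, 1.51 and 1.075 FPKM in WT, against 1.977, 1.641 and 1.865 in TG (log2 fold change 0.44, SE 0.17, unadjusted p = 0.033, adjusted p = 0.79 by limma). All TG libraries lay above all WT libraries. Grb14, an adaptor that restrains these receptors, had 3.696, 4.136 and 4.104 FPKM in WT and 3.228, 3.393 and 3.214 in TG libraries (log2 fold change -0.27, SE 0.09, unadjusted p = 0.022, adjusted p = 0.79 by limma). All TG libraries lay below all WT libraries for Grb14. Foxo3, a transcription factor that AKT keeps out of the nucleus, had 10.15, 9.51 and 8.268 FPKM in WT and 11.36, 10.15 and 11.42 in TG libraries (unadjusted p = 0.044 by limma), and WT1 and TG2 were level. Grb2, the most abundant of the list, had a log2 fold change of -0.0078 (adjusted p = 0.98 by limma). Of 3 mRNA-binding proteins named for Igf2 mRNA, Igf2bp3 alone was tested, with 0.4983 FPKM in WT and 0.5063 in TG libraries on average.

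Other cell types that could carry these genes were read by their marker lists, and their counts at an unadjusted p under 0.05 stand against 3.13% of all genes higher and 2.78% lower. Of 10 microglial genes 2 were higher, Trem2 (unadjusted p = 0.027 by limma) and Csf1r (unadjusted p = 0.045 by limma), while P2ry12 had a log2 fold change of -0.14, and the list summed to 176.9 to 200.3 FPKM in WT and 161.4 to 223.5 in TG libraries. Of 10 astrocyte genes 0 passed, Aldoc being the most abundant and Gfap the one with the smallest p (unadjusted p = 0.21 by limma). Of 10 oligodendrocyte genes all had a log2 fold change below 0 and 1 passed, Opalin (log2 fold change -0.77, unadjusted p = 0.0098 by limma). Of 8 ependymal genes 3 were lower, Ccdc153, Tmem212 and Rarres2, and Foxj1, the most abundant, had a log2 fold change of 0.33. Of 12 genes of hippocampal neurons Calb1 was lower (unadjusted p = 0.024 by limma), and of 10 interneuron genes 0 passed. Among genes of neighbouring regions, Fezf2 was the most abundant. Hcrt was lower (unadjusted p = 0.022 by limma), but on only 0 to 3 reads per library. The part of these cell types in the differences of the 10 members was not tested.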

How the data were processed

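Hippocampal RNA-seq of 3 WT and 3 TG mice was used. The authors counted reads per gene with HTSeq and deposited FPKM, 1 column per library and no pooling; the aligner is not given in the sources used here. RNeasy and SMARTer kits are given in the labels, Trizol and NEBNext in the methods. The submitters' processing notes name GRCm38 and mm10. All 10 members had the coordinates of GENCODE M21 (GRCm38), as did 53585 of the 54495 gene IDs found there. Strand and the rule for shared reads were not stated, so overlapping genes are uncertain. Multiplied by gene length, 100% of values came out as whole reads (tolerance 0.05 reads) once divided by a constant of the library, which gave the reads per gene. On a gene of 1 kb, 3 reads equal an FPKM of 0.160 to 0.190. Genes whose FPKM averaged 0.1 or more were fitted with limma 3.58.1 in R 4.3.3 (lmFit and eBayes with a trend) on log2(FPKM + 0.1), a pseudocount of 0.1, without covariate or block, and adjusted by Benjamini-Hochberg. Ratios and sums were tested with exact permutation tests. The fit was tested on simulated data. Scripts also ran in Python 3.11.15 with numpy 2.4.6.

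The members and gene lists were chosen with earlier results of these data known. Genes named are the 10 members, all relatives, the most abundant gene and the one with the smallest p of each list, Ttr, Slc1a2, and the 5 genes nearest in pattern to members that ranged over at least 1 on the log2 scale. Other named genes (Plau, Irs1, Foxo3, Csf1r, Tmem212, Rarres2) passed the unadjusted threshold and were named after their values were seen, as was P2ry12. A result of 1 other gene is not reported here. Alternatives were other pseudocounts, filters and scalings, no variance trend, voom on recovered reads, a replicate block, left-out libraries, TG3 alone, and scores of choroid plexus or meningeal genes as covariates. The sum of the binding proteins without Igfbp2 was added after seeing the data.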

Additional observations from a re-analysis of the deposited data

How the results depend on the processing

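At an adjusted p under 0.05, 1 gene was higher and 1 lower in TG. Both counts were 0 with a pseudocount of 0.01 or 1, without a filter, with voom on recovered reads, with the replicate block, with the choroid plexus or the meningeal score, and for TG3 alone; over genes averaging 1 FPKM or more, the count of higher genes was 0. They were 6 higher and 3 lower without a variance trend, and leaving out each library gave 0 to 6 higher and 0 lower. At an unadjusted p under 0.05, the main counts were 656 higher and 582 lower, those of the block 634 and 610, those of voom 813 and 490, and those of the choroid plexus score 328 and 371. Of the members, 3 were higher at that threshold, 5 with voom (Igf2 and Igf1r joined) and 0 with the choroid plexus score. Leaving out each library gave 1 to 5, with 5 without WT1 and 1 without WT2, WT3 or TG1. Signs turned for Igfbp3 with the choroid plexus score (-0.22) and for TG3 alone (-0.26). With left-out libraries, log2 fold changes ran from -0.062 to 0.18 for Igfbp3, from -0.014 to 0.26 for Igf1, from -0.015 to 0.35 for Igfbp6, from 0.88 to 1.77 for Igfbp2 and from 0.83 to 1.75 for Igf2. The cause of these moves was not tested. With the meningeal score Igf2r missed the threshold (unadjusted p = 0.052 by limma). With the replicate block 4 members passed, Igf2 with an unadjusted p of 0.040 by limma. Deviations of same-numbered libraries correlated at 0.013, 0.043 and 0.0031. WT1 and WT2 correlated best with their same-numbered TG library, whereas WT3 did so with TG1 (0.016). All such correlations were small, from -0.027 to 0.043, so they do not settle whether the numbers are pairs. The numbers were not taken as pairs. Igf1 and Igf2 have no value under that filter of 1 FPKM. Depth limits Igf2, Igf1, Igfbpl1 and Hcrt.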
